A study of Rattus norvegicus with 6 samples.

Results

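The genes described here were weakly expressed in wild-type macrophages and higher in every library of Cyp2j4 knockout macrophages. They numbered 60 of the 29516 Ensembl gene IDs counted. RNA came from bone marrow-derived macrophages of Wistar-Kyoto (WKY) rats, with 3 libraries from wild-type animals (labelled WKY control) and 3 from Cyp2j4 knockout (Cyp2j4-/-) animals of the same strain. Age, sex and treatment are not given in the labels, nor whether animals were pooled or which animal gave which library, so the spread between libraries may be partly technical.

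Macrophages, phagocytes that clear debris and direct inflammation and repair, can be grown in culture from marrow precursors. Cyp2j4 belongs to the cytochrome P450 epoxygenases, which convert arachidonic acid to epoxyeicosatrienoic acids, lipid mediators that act on vessels and on inflammation. A weak signal in bulk RNA can come from a few transcripts in most cells or from many transcripts in a few cells. In these bulk samples a change in the number of cells of a type and a change in RNA per cell cannot be told apart.

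The members were chosen on the readout itself. Levels were counts scaled to 1000000 gene counts (CPM) by each library's total. A gene qualified when its mean over the wild-type libraries lay from 0.5 to under 10 CPM and its lowest knockout library was at least 1.3 times its highest wild-type library. Within that wild-type range there were 3623 genes, of which the 60 members made up 1.66%. The mirror rule, with the lowest wild-type library at least 1.3 times the highest knockout library, took 33 of the 3623 genes (0.911%). The difference between the genotypes is therefore a description of how the genes were picked, and no test of it is given. The counts pair no gene symbol with an Ensembl ID, and the reference used here matched 0 of them. Cyp2j4 itself, macrophage markers and markers of other cell types were not analysed here for that reason. No check of the genotype labels by the targeted gene was therefore made. Only the first 2 members by the ratio of the extreme libraries are given by ID, and the others are given by their rank in that ratio.

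**Figure D1:**
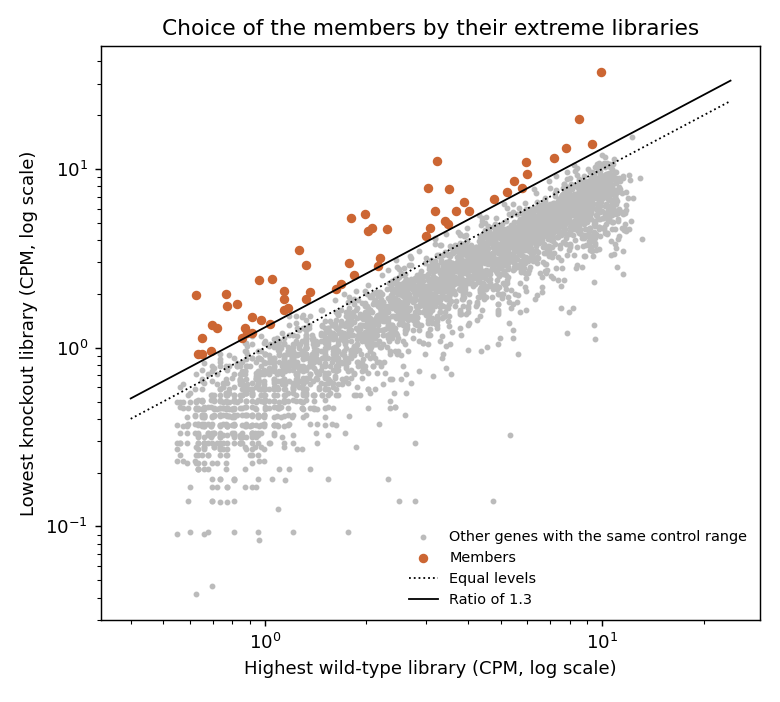
Highest wild-type library (x axis, CPM, log scale) against lowest knockout library (y axis, CPM, log scale) for the 3623 genes with a wild-type mean from 0.5 to under 10 CPM, except 1 gene with a knockout library at 0. The 60 members (orange) lie on or above the solid line, a ratio of 1.3, and most other genes (grey) lie below the dotted line of equal levels.

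Gene counts per library ranged from 27248491 to 33916549 in wild type and from 21590429 to 23923666 in knockout, so every knockout library was shallower. At these depths 3 counts correspond to between 0.0885 and 0.139 CPM. Across the 11645 genes tested, the CPM of knockout replicate 2 had rank correlations of 0.983 and 0.985 with knockout replicates 1 and 3, against 0.994 between those. Knockout replicate 2 correlated higher, at 0.993, with wild type replicate 1, and knockout replicate 1 correlated at 0.995 with wild type replicate 3. The wild-type libraries correlated with one another at 0.996 to 0.997, above every correlation of a wild-type with a knockout library. By these values the wild-type libraries grouped together, while the knockout libraries did not form a group of their own. These correlations are across genes, which are not independent replicates.

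ENSRNOG00000019987 had the largest ratio between the extreme libraries and the highest knockout mean of the members. Its levels were 9.89, 6.79 and 6.57 CPM in wild type replicates 1 to 3 and 34.9, 41.8 and 34.9 CPM in knockout replicates 1 to 3. The knockout libraries lay close together, and the lowest of them was 3.52 times the highest wild-type library. The means were 7.75 ± 1.86 CPM and 37.2 ± 4.03 CPM (SD, n = 3 each), a 4.80-fold difference. Its lowest knockout level rested on 768 counts, with an exact Poisson 95% interval of 32.4 to 37.4 CPM, and its highest wild-type level on 329 counts, with an interval of 8.85 to 11.0 CPM. Such intervals cover counting error only, and here and below they are set on the extreme libraries that the rule compared.

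ENSRNOG00000003357 was second by that ratio and had the largest difference of means. It stood at 1.80, 0.367 and 3.24 CPM in wild type replicates 1 to 3 and at 25.9, 11.0 and 59.8 CPM in knockout replicates 1 to 3. The means were 1.80 ± 1.44 CPM and 32.2 ± 24.98 CPM (SD, n = 3 each), a 17.9-fold difference. Unlike ENSRNOG00000019987, it differed widely within each genotype: its highest knockout library was 5.42 times its lowest, and its highest wild-type library was 8.84 times its lowest. Wild type replicate 2 and knockout replicate 2 were the lowest libraries of their groups. The lowest knockout level, from 264 counts, had an exact Poisson 95% interval of 9.74 to 12.4 CPM, above the interval of 2.67 to 3.91 CPM around the highest wild-type level.

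These 2 genes differed in how far apart the knockout libraries lay, and the members are divided here by that measure. In 40 members the knockout libraries lay within 2-fold of one another, and in 20 members they differed by more than 2-fold. The 2-fold line was drawn after the values were seen and did not fall in a marked gap. The members nearest to it, ranked 34 and 14, had highest-to-lowest knockout ratios of 1.95 and 2.15. At a line of 1.5-fold, 30 members (50.0%) and 1645 of the 3623 genes (45.4%) were further apart. Of all 3623 genes in the same wild-type range, 671 (18.5%) had knockout libraries more than 2-fold apart, against 33.3% of the members. With TMM-scaled totals 23 of the 68 genes that the rule took were that far apart. After thinning all libraries to the lowest total, 14 of 55 were. Knockout replicate 2 was the lowest knockout library in 19 of the 20 members, and replicate 3 was the highest in 19. The division therefore rests on both libraries. With knockout replicate 2 left out, replicates 1 and 3 were more than 2-fold apart in 7 of the 60 members, all among the 20. That was so in 184 of the 3623 genes (5.08%). Leaving out any library can only lower such numbers, and they were not counted without knockout replicate 3.

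Among the 40 even members the summed level was 250 CPM in knockout replicate 1, 266 CPM in replicate 2 and 260 CPM in replicate 3, against 119, 94.4 and 105 CPM in wild type replicates 1 to 3. The rule puts every knockout sum above every wild-type sum, and the 2-fold line limits how far the knockout sums can differ. Neither is therefore a finding about these members. The ratio of knockout to wild-type means ran from 1.44 to 5.10 over these members, with a median of 2.19, and without knockout replicate 2 the median was 2.20. Knockout replicate 2 was the highest knockout library in 18 of the 40, replicate 3 in 14, and replicate 2 was the lowest in 11.

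The uneven members followed 1 order. In 18 of the 20, knockout replicate 2 was lowest, replicate 1 intermediate and replicate 3 highest. Over the 671 genes of the same wild-type range with knockout libraries more than 2-fold apart, this order was found in 184 (27.4%). The summed level of the 20 uneven members was 70.4 CPM in knockout replicate 2, 151 CPM in replicate 1 and 300.2 CPM in replicate 3. In wild type the sums were 30.8, 26.6 and 33.7 CPM in replicates 1 to 3, below every knockout sum, as the rule requires. The ratio of knockout to wild-type means ran from 2.50 to 17.9, with a median of 4.11, and without knockout replicate 2 from 2.97 to 23.7, with a median of 4.98. Replicate 3 exceeded replicate 1 in 19 of the 20 uneven and 26 of the 40 even members, and in 1548 of the 3623 genes (42.7%).

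The members ranked 4 and 5 by ratio resembled ENSRNOG00000003357 in their levels. The member ranked 4 had 1.56, 0.734 and 1.80 CPM in wild type replicates 1 to 3 and 20.9, 5.35 and 35.9 CPM in knockout replicates 1 to 3. The member ranked 5 had 1.68, 0.440 and 1.98 CPM in wild type and 19.2, 5.60 and 38.2 CPM in knockout. In both, wild type replicate 2 and knockout replicate 2 were again the lowest of their groups, and knockout replicate 3 was 6.70 and 6.81 times knockout replicate 2.

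The members ranked 7 and 3 showed the same order in knockout from a lower wild-type level. The member ranked 7 had 0.391, 0.477 and 0.767 CPM in wild type and 7.41, 2.01 and 13.8 CPM in knockout, with knockout replicate 3 at 6.88 times replicate 2. The member ranked 3 had 0.541, 0.624 and 0.442 CPM in wild type and 4.17, 1.96 and 7.76 CPM in knockout. In these members wild type replicate 2 was not the lowest of its group, so the low value of that library was not common to the uneven members. It was the lowest wild-type library in 8 of the 20.

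**Figure D2:**
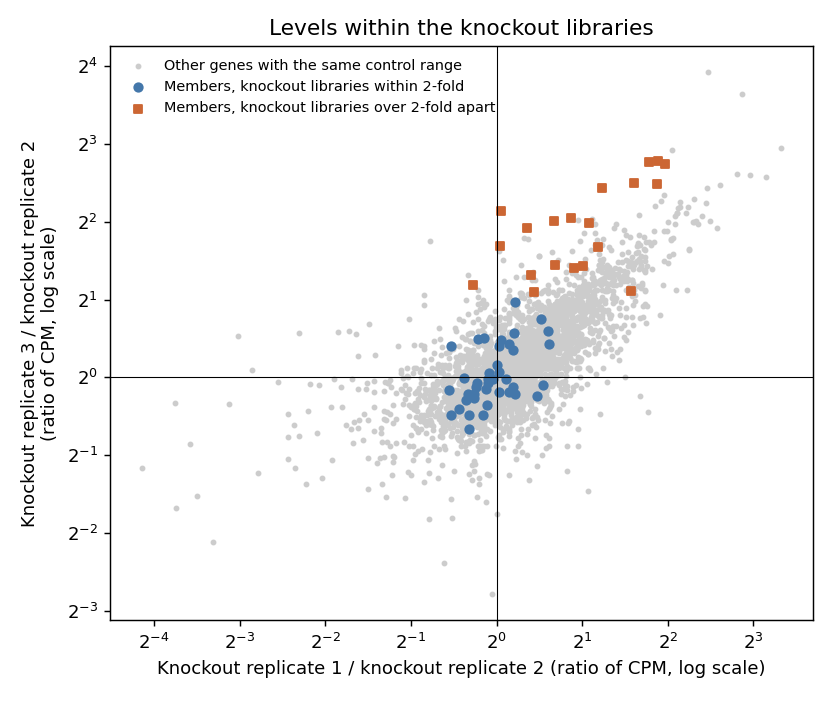
Ratio of CPM in knockout replicate 1 to replicate 2 (x axis, log scale) and in knockout replicate 3 to replicate 2 (y axis, log scale) for each gene with a wild-type mean from 0.5 to under 10 CPM, except 1 with a knockout library at 0. The 40 even members (blue circles) surround the point of equal levels, while the 20 uneven members (orange squares) have a ratio of replicate 3 to replicate 2 from 2.15 to 6.88.

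The members with the largest folds were mostly uneven. The fold and the unevenness are computed from the same knockout values, and a high replicate 3 raises both, so their association is partly built in. Of the 13 members with means more than 4-fold apart, 11 had knockout replicate 2 lowest and replicate 3 highest with replicate 1 between them, and of the other 47 members 17 did. Without knockout replicate 2, replicate 3 exceeded replicate 1 in 12 of the 13. The 8 members with the largest folds all had this order, and their folds ran from 17.9 down to 5.17 at the member ranked 45 by ratio. That member stood at 1.14, 1.17 and 0.826 CPM in wild type and at 5.09, 1.67 and 9.49 CPM in knockout. Knockout replicate 2 was there only slightly above wild type, while replicate 3 was far above it. The exceptions over 4-fold were ENSRNOG00000019987 and the member ranked 6, which had 1.26, 0.404 and 0.826 CPM in wild type and 3.52, 4.60 and 4.58 CPM in knockout.

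The order of libraries over all 60 members can be set beside that of the 3623 genes. Knockout replicate 2 was the lowest knockout library in 30 members (50.0%) and in 1814 of the 3623 genes (50.1%), so its low position was as frequent among the members as in the range at large. Knockout replicate 3 was the highest in 33 members (55.0%) and in 1067 of the genes (29.5%). Knockout replicate 1 was the highest in 9 members (15.0%) and in 1621 genes (44.7%). With TMM-scaled totals, where the rule took 68 genes, replicate 2 was lowest in 28 of those and in 42.8% of the range, and replicate 3 highest in 36 of those and in 30.8%. The wild-type libraries, by library totals, also differed in position. Wild type replicate 1 was the highest of its group in 30 members (50.0%) and in 746 genes (20.6%). Wild type replicate 2 was the lowest in 27 members (45.0%) and in 770 genes (21.3%). Wild type replicate 3 was the highest in 20 members (33.3%) and in 1182 genes (32.6%). Since the rule constrains the lowest knockout and the highest wild-type library, these shares are descriptions.

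**Figure D3:**
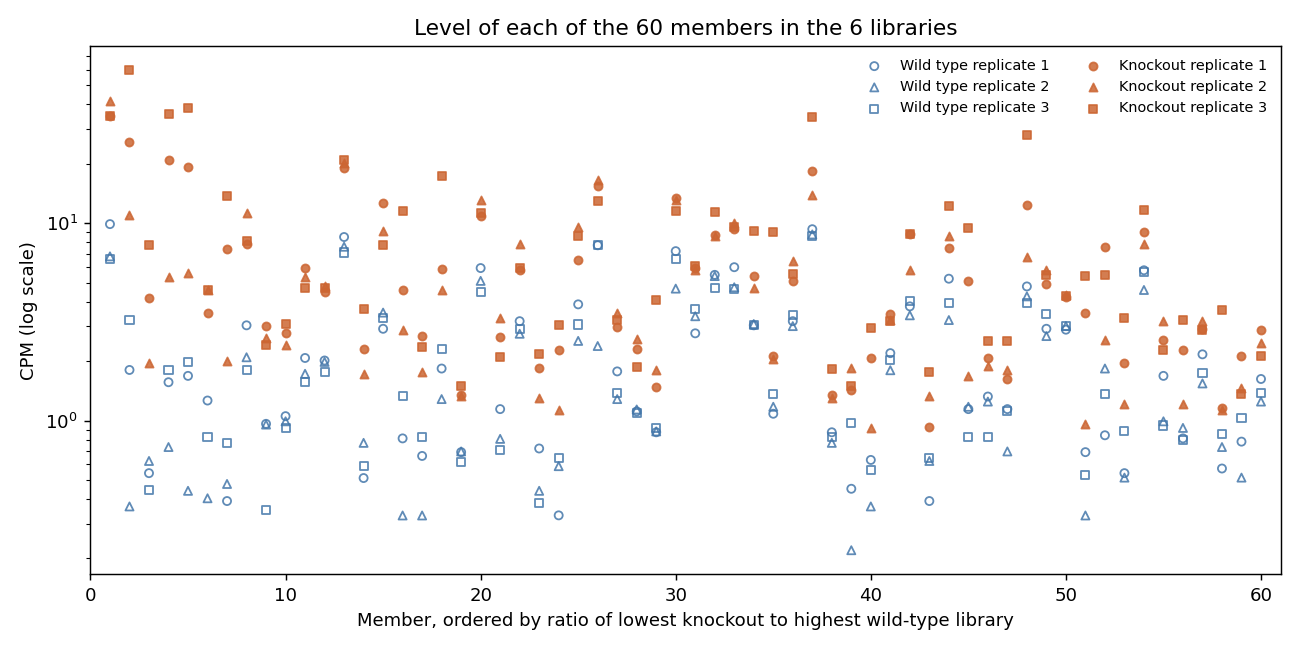
Level of each of the 60 members (x axis, in order of the ratio of the lowest knockout to the highest wild-type library) in CPM on a log scale (y axis), with open blue symbols for the 3 wild-type and filled orange symbols for the 3 knockout libraries. The knockout symbols of the first member lie together, whereas those of the second spread from 11.0 to 59.8 CPM with replicate 3 (square) on top and replicate 2 (triangle) at the bottom.

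The wild-type level of the members ran from a mean of 0.515 to 8.90 CPM, with a median of 1.37 CPM, and the knockout mean from 1.34 to 37.2 CPM, with a median of 4.65 CPM. Members were most frequent at the weak end of the range. They made up 23 of 636 genes (3.62%) with a wild-type mean from 0.5 to under 1 CPM, 15 of 640 (2.34%) from 1 to under 2 CPM, 13 of 1138 (1.14%) from 2 to under 5 CPM and 9 of 1209 (0.744%) from 5 to under 10 CPM. The mirror rule took 5, 11, 11 and 6 genes of these bands, so that the numbers of higher and lower genes differed most in the weakest band. The bands are cut on the wild-type mean, which is one side of the contrast. The median ratio of knockout to wild-type means was 3.34 in the weakest band, 2.98, 2.10 and 2.27 in the next ones.

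Together the members took 0.0150%, 0.0121% and 0.0139% of the gene counts in wild type replicates 1 to 3 and 0.0401%, 0.0336% and 0.0561% in knockout replicates 1 to 3. Summed, they averaged 137 ± 14.8 CPM over the wild-type and 433 ± 116 CPM over the knockout libraries (SD, n = 3 each). The 5 members with the highest knockout means contributed 30.8% of the knockout sum. These included the member ranked 37, the third by knockout mean. It stood at 9.32, 8.77 and 8.61 CPM in wild type and at 18.3, 13.9 and 34.5 CPM in knockout, so that it was even in wild type and uneven in knockout.

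The wild-type libraries were also less alike at the members than elsewhere in the range. In 12 of the 60 members the highest wild-type library was more than 2 times the lowest, against 177 of the 3623 genes (4.89%). The median coefficient of variation over the members was 19.1% in wild type and 21.1% in knockout, and over the 3623 genes 13.0% and 19.2%. Counting error is larger at weaker levels, and its part in these spreads was not tested.

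Counting error limits the weaker members. The lowest knockout level rested on 20 to 768 counts and the highest wild-type level on 17 to 329 counts. In 33 members the exact Poisson 95% interval of the lowest knockout library lay above that of the highest wild-type library, and in 27 the intervals met. The 27 had a median wild-type mean of 0.889 CPM and the 33 a median of 3.05 CPM. Intervals that meet do not by themselves place a difference within counting error. Intervals that lie apart are no test either, since the rule chose the members on these same extreme libraries.

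The rule's threshold did not fall in a gap. Of the 3623 genes, 24 had a ratio from 1.2 to under 1.3, 10 from 1.3 to under 1.4 and 15 from 1.4 to under 1.5, while 17 had a ratio of 2 or more. The last member inside, at a ratio of 1.31, had 1.62, 1.25 and 1.39 CPM in wild type and 2.87, 2.47 and 2.13 CPM in knockout. The first gene outside, at 1.29, had 3.79, 4.26 and 4.30 CPM in wild type and 5.56, 6.77 and 5.81 CPM in knockout. The other 3 members nearest the threshold had ratios up to 1.32, and the other 3 genes nearest below it had ratios down to 1.28.

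Without any ratio, the knockout libraries lay above all wild-type libraries in 217 of the 3623 genes (5.99%) and below all of them in 385 (10.6%). With TMM-scaled totals these numbers were 271 and 292, so this split depends on the scaling. The rule took 68 higher and 26 lower genes with TMM-scaled totals and 55 and 31 after thinning all libraries to the lowest total, beside the 60 and 33 above. Of the 60 members, 59 were retained with TMM-scaled totals and 44 after thinning.

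The edgeR quasi-likelihood test over 11645 genes, at a Benjamini-Hochberg adjusted p under 0.05, called 6 of the 60 members higher in knockout, where 0.112% of all genes tested were called higher. Of the 3621 genes tested in the same wild-type range 0.166% were called higher, and these were the same 6. All 60 members passed the filter on low counts. As the rule used the same contrast, nothing is read from that count. The median fitted log2 fold change of the members was 1.44 and that of all genes tested was -0.01. In that fit the 6 called members were even among the knockout libraries, with a highest-to-lowest ratio from 1.07 to 1.64. They were ENSRNOG00000019987 and the members ranked 10, 11, 12, 13 and 15.

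The called members other than ENSRNOG00000019987 had differences of means from 2.43-fold to 3.03-fold. The member ranked 13 stood at 8.51, 7.60 and 7.11 CPM in wild type and at 18.9, 20.2 and 20.9 CPM in knockout. The member ranked 12 stood at 2.01, 1.98 and 1.77 CPM in wild type and at 4.49, 4.81 and 4.72 CPM in knockout, the closest knockout libraries among the 6. The member ranked 15 had 2.92, 3.52 and 3.30 CPM in wild type and 12.7, 9.11 and 7.72 CPM in knockout, with replicate 1 the highest. In the members ranked 12 and 13 both genotypes were narrow, and in the member ranked 15 only wild type was.

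Which members were called depended on the fit. With the filter and genotype as the only term, edgeR and limma-voom with all libraries called 0 of the 20 uneven members, although edgeR gave an unadjusted p under 0.05 for 20 of them (4.71% of all genes tested were higher at that p). DESeq2 called 19 of the 20 uneven and 28 of the 40 even members, 47 in all, where 1.08% of all genes with an adjusted p were called higher. With no filter on low counts edgeR called 6 uneven and 19 even members (0.315% of all genes tested). The labels do not pair libraries by replicate number. With that number as a block edgeR called 5 uneven and 3 even members (0.223% of all genes tested). The uneven ones were ENSRNOG00000003357 and the members ranked 4, 5, 7 and 16, and the members ranked 10, 12 and 15, all even, were no longer called. That the called members were even is therefore a feature of some fits and not of others.

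Leaving out 1 library moved the calls further. Without knockout replicate 2, edgeR called 17 of the 20 uneven and 22 of the 40 even members, where 1.74% of all genes tested were called higher. With knockout replicate 3 left out, edgeR called 0 of the 60 (0.00847% of all genes tested were called higher), and with replicate 2 or 3 of wild type left out it called 0 of the 60 and 0 of all genes. In these fits 60 members had an unadjusted p under 0.05, where 3.69%, 3.33% and 3.47% of all genes tested were higher at that p. Without wild type replicate 1 or knockout replicate 1 edgeR called 2 members, where 0.0256% and 0.0424% of all genes tested were called higher. DESeq2 and limma-voom were not run with libraries left out. As above, the rule used this contrast, and nothing is read from these counts about the members.

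**Figure D4:**
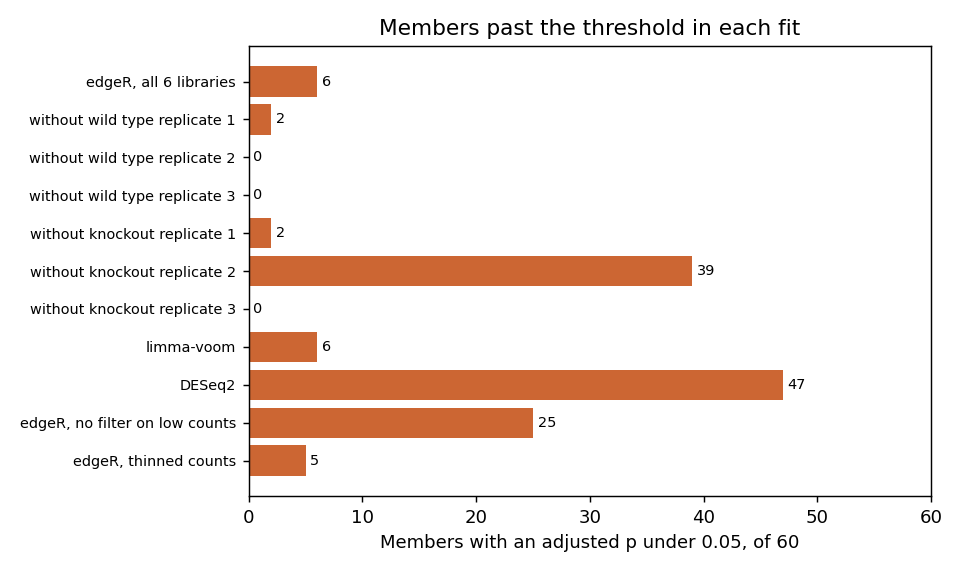
Number of the 60 members with a Benjamini-Hochberg adjusted p under 0.05 (x axis) in each fit (y axis): edgeR with all libraries and with each library left out, limma-voom, DESeq2, edgeR without a filter and edgeR on thinned counts. The number was 6 with edgeR and all libraries, 39 without knockout replicate 2, and 0 in the fits that left out knockout replicate 3 or replicate 2 or 3 of wild type.

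Leaving out a library also changed which genes the rule took. Without knockout replicate 2 it took 115 genes, the 60 members and 55 others, and without knockout replicate 1 it took 96, the 60 and 36 others. Without knockout replicate 3 it took 68. Without a wild-type library it took 70, 75 and 78 genes for replicates 1 to 3, of which 57, 58 and 55 were members. A rule on the extreme libraries admits more genes when fewer libraries have to satisfy it, which by itself can add genes.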

How the data were processed

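TopHat2, HTSeq and the rat build rn4 are named in the submitters' processing notes. For versions, annotation release and strand setting the sources used here give nothing. The authors deposited raw counts per Ensembl gene, 1 column per library. The 5 HTSeq summary lines, 18.7% to 19.6% of listed reads, name no gene and were left out of totals and tests. Reads listed as ambiguous, 0.799% to 0.943% of listed reads, are among those lines and were counted for no gene. How other reads of overlapping genes, antisense genes or near-identical copies were assigned was not examined.

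CPM for choosing and describing members used library totals. Counts were tested with edgeR 4.0.16 in R 4.3.3 (filterByExpr, TMM, quasi-likelihood F test, genotype as the only term, Benjamini-Hochberg adjustment over 11645 genes). DESeq2 1.42.0 and limma-voom (limma 3.58.1), other scalings and filters, each library left out, the replicate number as a block and thinning to the lowest total were alternatives. The tests were tried on simulated data. The members and lists were chosen with earlier results of these data known. Individual genes were to be named by symbol; without symbols, the first 2 by the ratio of extreme libraries are given by ID, and others by rank. Gene and marker lists could not be applied without symbols, and no sequences are shown.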

Additional observations from a re-analysis of the deposited data

How the results depend on the processing

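The filter of 1 CPM in 3 libraries left 3 members untested; the direction of the members was fixed by the rule and is no sign of stability. With edgeR and all libraries 13 genes were called higher and 1 lower, 6 of the higher ones being members. With no filter on low counts these numbers were 54, 5 and 25, and with DESeq2 178, 18 and 47. Leaving out 1 library gave from 0 to 207 higher genes, from 1 to 43 lower genes and from 0 to 39 members called. The highest values came without knockout replicate 2; 0 higher genes came without wild type replicate 2 or 3. Other scalings, the 1 CPM filter, limma-voom and thinning gave 10 to 14 higher genes and 4 to 6 members. The rule took 35 genes at a ratio of at least 1.5, 37 with a wild-type mean from 1 CPM, and from 68 to 115 with 1 library left out. With the replicate number as a block 26 genes were called higher and 8 members, of which 5 were uneven among the knockout libraries and 3 even; the latter were among the 6, whose other 3 were lost. Residuals of same-numbered libraries correlated at -0.439, -0.138 and 0.148, and 1 of 6 libraries correlated best with its own number, so no pairing by number was assumed. Members with knockout libraries more than 2-fold apart numbered 20, and 7 without knockout replicate 2, an alternative chosen after seeing the data. The cause of these changes was not tested. Depth limits what can be said of members whose extreme libraries hold as few as 17 counts.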
